A study of Saccharomyces cerevisiae with 3 samples.

Results

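In *Saccharomyces cerevisiae*, 78 windows of 150 bp gave many MNase-protected fragments of nucleosomal size as naked DNA and few as chromatin of *dst1∆* cells. They were taken from 80303 windows that tile the 16 nuclear chromosomes. Each read start was moved 73 bp inward to the middle of a nucleosome-sized fragment, at most 10 reads were counted per strand position, and the count of each window was divided by the mean window count of its library, so that a level of 1 is the library mean. A member window had a level above 4 in naked DNA and at most 0.7 in both *dst1∆* replicates. The members were thus chosen by their levels in these same 3 libraries, which are given as a description, without a test.

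Micrococcal nuclease (MNase) cuts the linker DNA between nucleosomes and leaves the DNA wrapped around the histone octamer. It also cuts some sequences more readily than others, so that deproteinised DNA digested by the enzyme still gives fragments unevenly along the genome. In yeast chromatin, nucleosomes are phased over gene bodies from a nucleosome + 1 close to the transcription start site (TSS), and the promoter upstream of it holds a nucleosome-depleted region (NDR), followed further upstream by nucleosome − 1. Few fragments of nucleosomal size are recovered from an NDR, where transcription factors and the basal transcription machinery bind.

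The chromatin came from 2 replicates of a *dst1∆* strain, which lacks the gene of the transcription elongation factor TFIIS, and was set against 1 library of naked DNA from wild-type BY4741, the parental background of the mutant. All cells grew exponentially in rich YPD medium and were cross-linked with formaldehyde. Chromatin was digested mildly and its mononucleosomal band was cut from a gel, and the deproteinised DNA of cross-linked wild-type cells was digested to a similar range and cut at a similar size. Wild-type chromatin was not analysed here, so strain and the presence of nucleosomes change together between the groups and cannot be told apart, and with 1 naked DNA library no difference between the groups has a replicate check on both sides.

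The 3 libraries held 10776646 and 9049024 reads for *dst1∆* replicates 1 and 2, against 16618987 reads for naked DNA. The mean window held 96.6 and 83.5 counted reads in the *dst1∆* replicates, against 131 in naked DNA. Replicate 1 was sequenced in the same run and read length as naked DNA, and replicate 2 on another instrument with longer reads. Across all windows, the levels of replicate 1 followed those of naked DNA more closely (Pearson's r 0.789 over 80303 windows) than did those of replicate 2 (r 0.484), and the replicates had r 0.643 with each other. Neighbouring windows share fragments and base composition, so these r values describe the libraries and nothing more. Replicate 1 thus stands nearer to naked DNA than replicate 2 does, and its part in the results was not tested.

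The rule selected 78 windows, 0.0971% of the genome. Naked DNA was above 4 in 5398 windows (6.72%), and the *dst1∆* level was at most 0.7 in both replicates in 27173 windows (33.8%). A low chromatin level was common taken over the whole genome, in 51.2% of windows for replicate 1 and 46.1% for replicate 2. Among the 5398 MNase-resistant windows it was rare. Replicate 1 was at most 0.7 in 100 of them (1.85%) with a median level of 3.66, and replicate 2 in 774 (14.3%) with a median of 1.83. The plot of the resistant windows shows the members in the lower left corner of a cloud in which both replicates are mostly above their library mean. The number of members was set mainly by replicate 1: without it, 774 windows met the rule, and without replicate 2, 100 did.

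**Figure D1:**
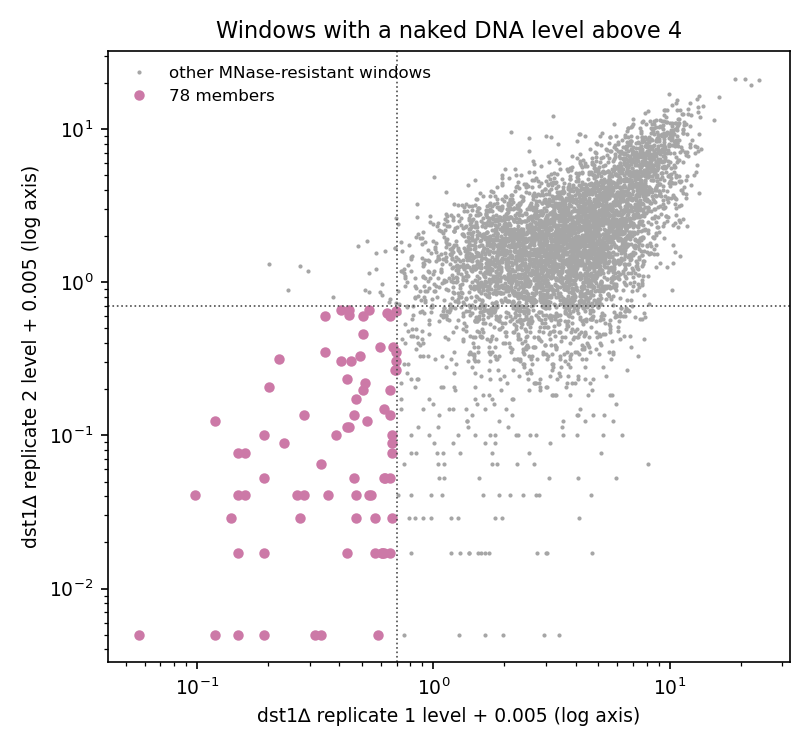
Levels of the 5398 windows with a naked DNA level above 4 in *dst1∆* replicate 1 (x axis) and replicate 2 (y axis), both on log axes after adding 0.005, with dotted lines at 0.7. The 78 members (large points) lie below both lines, 696 windows lie below the line of replicate 2 only, 22 below that of replicate 1 only, and 4602 below neither.

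In *dst1∆* replicate 1 the members ran from 0.0518 to 0.694 with a median level of 0.456, and in replicate 2 from 0 to 0.659 with a median of 0.0838. In naked DNA they ran from 4.01 to 7.59 with a median of 4.67. A member held 44 counted reads in the median in replicate 1 and 7 in replicate 2, against 611 in naked DNA. All members had reads in replicate 1, whereas 7 had none in replicate 2 and 29 had at most 3 there, which is the limit that a count of 0 allows (a level of 0.0359). Replicate 1 was the higher of the replicates in 68 of 78 members. The mean of the 2 replicate medians was 0.27 ± 0.263 (SD, n = 2), a spread about as large as the mean itself.

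**Figure D2:**
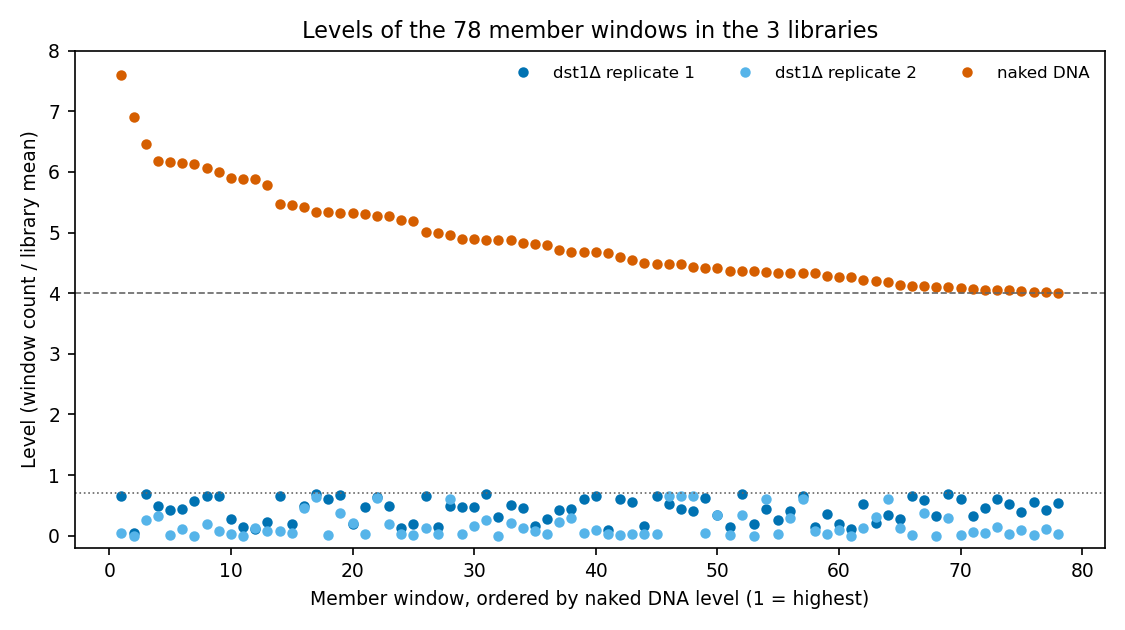
Level (window count divided by the library mean) of the 78 members in *dst1∆* replicate 1, *dst1∆* replicate 2 and naked DNA, ordered by the naked DNA level, with lines at the limits of 4 and 0.7. Naked DNA runs from 7.59 down to 4.01, replicate 1 spreads up to its limit, and most points of replicate 2 lie close to 0.

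The limits cut through a continuous range. Just inside the naked DNA limit were windows on chromosomes X (205051 to 205200), XV (273751 to 273900) and IV (1017151 to 1017300), with naked DNA levels of 4.01, 4.02 and 4.02. Just outside were windows on chromosomes XV (1054051 to 1054200 and 877801 to 877950) and IV (238801 to 238950), with 3.99, 3.98 and 3.95. Of the windows depleted in both replicates, 52 had a naked DNA level between 3.5 and 4 and 35 between 4 and 4.5. The chromatin limit did the same, since 26 resistant windows had their higher replicate between 0.6 and 0.7 and 27 between 0.7 and 0.8.

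The reads of the members came from both strands. In naked DNA the Watson level was 3.21 to 7.11 and the Crick level 2.91 to 8.17, and 54 of 78 members were above 4 on each strand. In replicate 1, 63 members were at most 0.7 on each strand, and 70 were in replicate 2. The fragments were also spread over many start positions, with 29 distinct positions in the median member in replicate 1, 6.5 in replicate 2 and 125 in naked DNA. Repeated reads were frequent in naked DNA, however. The limit of 10 reads per position kept 99.7% and 94.1% of the members' reads in the *dst1∆* replicates, against 53.3% in naked DNA.

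The levels of the members depended on how repeated reads were counted. With each position counted once, the median level of the members was 0.68 in replicate 1 and 0.197 in replicate 2, against 2.81 in naked DNA. With every read counted, it was 0.332 and 0.0622 in the replicates, against 5.28 in naked DNA. No window at all met the rule with each position counted once. The highest naked DNA level of a member was then 3.92, while 112 windows of the genome were above 4. On the chromatin side, 39 of the 78 members were then at most 0.7 in both replicates, and the highest level of a member was 1.15 in replicate 1 and 1.12 in replicate 2.

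No 2 members were adjacent, which is no result, since only 0.0971% of all windows were members. The windows next to them had a median level of 0.906 before and 0.714 after in replicate 1. It was 1.14 and 1.05 in replicate 2, and 0.608 and 0.482 in naked DNA. In naked DNA 13 of the 156 neighbouring windows were above 4, against 6.72% of all windows, and the median of all windows was 0.413. The fragment centres of naked DNA within 100 bp of the middle of the window had an SD of 32 bp in the median member (22.5 to 66.9 bp). The cut at 100 bp bounds this SD and no comparison set is given, so it is a description. The adjacent window was mostly below the library mean in naked DNA.

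The members lay on all 16 chromosomes, with 12 on XV, 11 on IV, 7 each on II, IX and XIV, and 1 each on III, VI, VIII and X. Per length, chromosome IX had the most (15.9 per Mb) and X the fewest (1.34 per Mb). Within 20 kb of a chromosome end were 2 members (2.56%), against 5.34% of all windows. All coordinates are those of the sacCer2 build.

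A TSS and a polyadenylation site (pAS) were available for genes of about the first 300 kb of each chromosome, which held 33 of the 78 members and 31336 windows. Of these members, 23 (69.7%, Wilson 95% interval 52.7 to 82.6%, counting error only) were centred within the 500 bp upstream of a TSS, against 18.4% of all windows. A further 5 (15.2%) lay in a gene body, against 64.6% of all windows, 1 lay within 200 bp after a pAS and 4 lay elsewhere. Low chromatin and resistant DNA each went with less of this shift. Of the windows depleted in both replicates with an ordinary naked DNA level (0.5 to 1.5), 31.1% were upstream of a TSS, of resistant windows depleted in replicate 2 alone 40.8%, and of resistant windows depleted in neither 21%. The share depended on the replicates used and on the window size: it was 43.8% without replicate 1, 51.2% with windows of 100 bp and 100% (8 of 8) with windows of 200 bp.

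**Figure D3:**
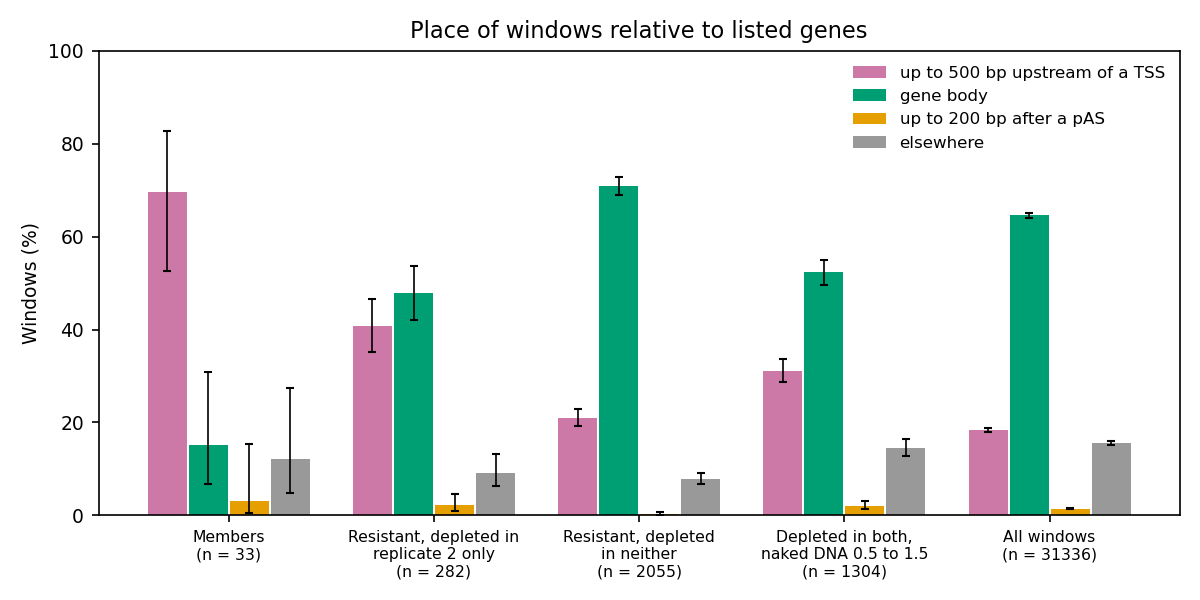
Share of windows (y axis, %) up to 500 bp upstream of a TSS, in a gene body, up to 200 bp after a pAS or elsewhere, in the first 300 kb of each chromosome, for the members, the sets set beside them and all windows. Bars start at 0 and error bars are Wilson 95% intervals for counting error. The upstream bar of the members stands at 69.7%, against 18.4% for all windows.

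The centre of the upstream members was 129.5 bp before the TSS in the median, with a range of 43.5 to 433.5 bp. The median was nearly the same, 137.5 bp, for upstream windows depleted in both replicates with an ordinary naked DNA level, and 246.5 bp for all upstream windows. Of the 23, 16 (69.6%) were 50 to 200 bp before the TSS, where 29% of all upstream windows lie. This is the stretch in which yeast promoters usually have their NDR. In 5 cases the window lay in a divergent promoter, upstream of 2 genes at once, and in 4 it also lay inside the body of another gene.

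The 12 promoter members with the highest naked DNA level are given one by one. The highest of all members was 100.5 bp before the TSS of *AAT2*, which encodes an aspartate aminotransferase (chromosome XII, 198151 to 198300). Its level was 0.652 and 0.0479 in the *dst1∆* replicates, against 7.59 in naked DNA, with exact Poisson 95% intervals of 0.501 to 0.834, 0.0131 to 0.123 and 7.13 to 8.08 for counting error. The gene *SNR30*, of a small nucleolar RNA, lies between *AAT2* and the next gene in the RefSeq assembly R64.

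The window 62.5 bp before *SDH2*, the iron-sulphur subunit of succinate dehydrogenase (chromosome XII, 54001 to 54150), had levels of 0.424 and 0.012 in the replicates, against 6.16 in naked DNA. In replicate 2 this is 1 read, against 805 reads in naked DNA. The window 91.5 bp before *KGD1*, a subunit of the 2-oxoglutarate dehydrogenase complex (chromosome IX, 122251 to 122400), had 0.435 and 0.108, against 6.15 in naked DNA. Both genes encode enzymes of the tricarboxylic acid cycle. The window 65.5 bp before *FMP40*, whose product is found in mitochondria (chromosome XVI, 129901 to 130050), had 0.663 and 0.0718, against 6 in naked DNA. The window 175.5 bp before *MET2*, which catalyses the first step from homoserine towards methionine (chromosome XIV, 117001 to 117150), had 0.497 and 0.455, against 5.41 in naked DNA. Here the replicates had nearly the same level, unlike at most members. The *MET2* window also lies within the transcribed region of *YNL277W-A*.

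Divergent promoters gave 4 of the 12 highest promoter members. Between *PEX6*, an ATPase needed to import peroxisomal proteins, and *EGT2*, which acts in cell separation, the window (chromosome XIV, 23701 to 23850) had 0.58 in replicate 1 and no reads in replicate 2, against 6.13 in naked DNA. In R64 the chaperone gene *MDJ2* also lies between them, so the window need not be the promoter of *PEX6* itself. Between *SDP1*, a phosphatase of a stress-activated MAP kinase, and *POR2*, a mitochondrial porin, the window (chromosome IX, 150301 to 150450) had 0.6 and 0.012, against 5.35 in naked DNA. Between *KIP1*, a mitotic kinesin, and *PRX1*, a mitochondrial peroxiredoxin, the window (chromosome II, 101551 to 101700) had 0.497 and 0.192, against 5.28 in naked DNA. Replicate 2 had at most 1 read in the windows at *PEX6* and *SDP1* and 16 at *KIP1*. Between *RSE1*, a splicing factor of the U2 snRNP, and *GSF2*, an endoplasmic reticulum protein, the window (chromosome XIII, 178201 to 178350) had 0.186 and 0.012, against 5.19 in naked DNA.

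The other members among these 12 varied more in their chromatin level. The window 86.5 bp before *GAL11*, a subunit of the Mediator tail (chromosome XV, 234601 to 234750), had 0.145 and 0.0359 in the replicates, against 4.99 in naked DNA, and its replicate 1 level was the lowest of the 12. In R64 the small nucleolar RNA gene *SNR81* lies between *GAL11* and its listed neighbour. The window 150.5 bp before *IGD1*, an inhibitor of glycogen debranching (chromosome VI, 183001 to 183150), had 0.631 and 0.623, against 5.28 in naked DNA, close to the limit in both replicates. It also lies within the transcribed region of *YFR018C*. The window 407.5 bp before *YML100W-A* (chromosome XIII, 69751 to 69900) had 0.466 and 0.168, against 4.89 in naked DNA. In R64 the gene *CUE4* lies between *YML100W-A* and its listed neighbour *CAC2*.

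The remaining 11 promoter members had replicate 1 levels of 0.186 to 0.683 and replicate 2 levels of 0.012 to 0.299, against naked DNA levels of 4.01 to 4.88. They lay 43.5 to 433.5 bp before the TSS of *MMF1*, *IZH4*, *YJU3*, *FLC1*, *RGI1*, *UBR2*, *SFT2* (divergent with *RTG3*, a transcription factor of the retrograde response), *CHS1*, *QDR2*, *MDM38* and *MDV1*. Over all 23 promoter members the median level was 0.497 in replicate 1 and 0.0718 in replicate 2, against 4.89 in naked DNA.

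**Figure D4:**
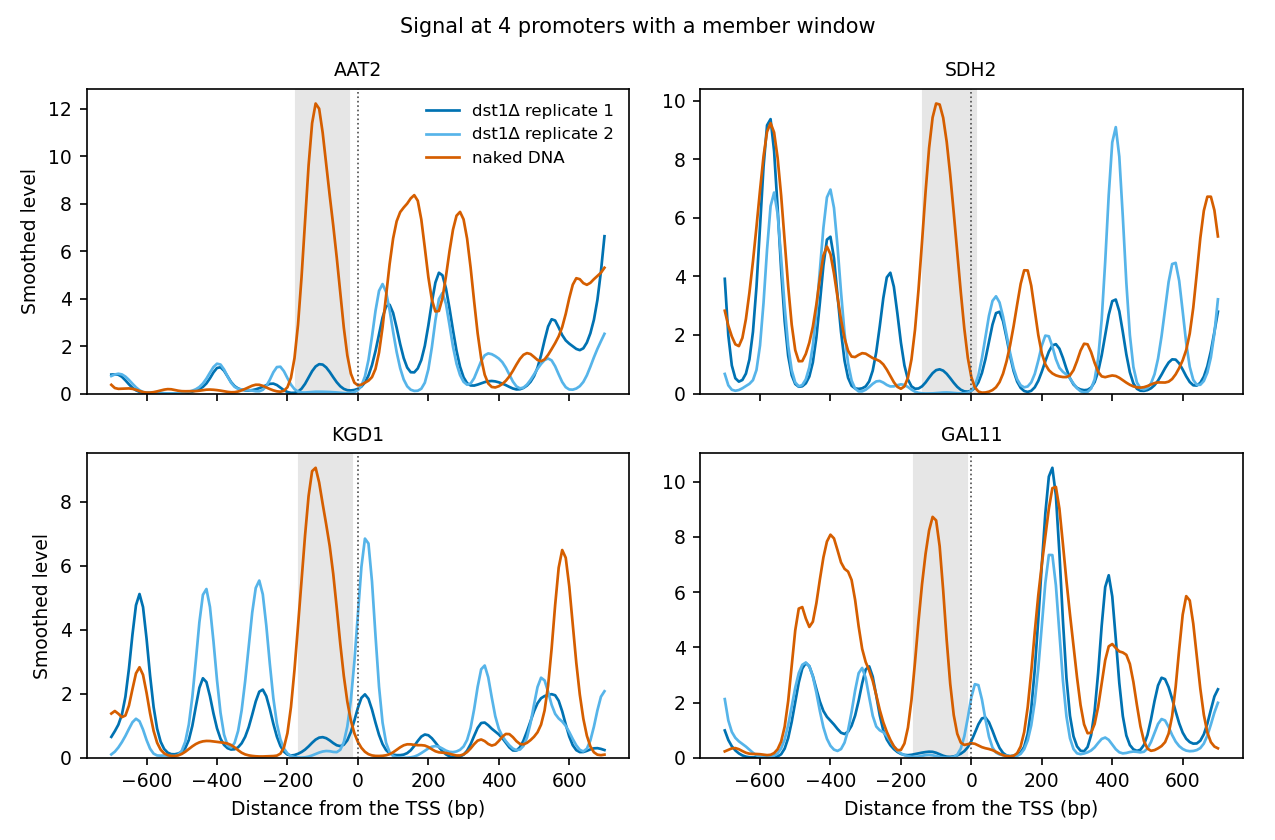
Signal smoothed with an SD of 20 bp (y axis, library mean = 1) by distance from the TSS (x axis, bp, with transcription to the right) at *AAT2*, *SDH2*, *KGD1* and *GAL11* in *dst1∆* replicates 1 and 2 and naked DNA. The member window is shaded. In each panel the naked DNA peak falls inside it, and the next *dst1∆* peak stands at or just after the TSS.

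At the promoters shown, which were picked as examples and need not be typical, the naked DNA peak stood where the *dst1∆* signal was lower. The direction of this contrast was fixed by the rule, since each promoter holds a member window. It was clearest in replicate 2, and at *AAT2* replicate 1 was above its library mean at the peak. At *AAT2*, the smoothed naked DNA signal peaked 120 bp before the TSS at a level of 12.2, where the replicates had 1.14 and 0.0765. At *SDH2* it peaked at 9.9, 100 bp before the TSS, where the replicates had 0.798 and 0.0135. At *KGD1* it peaked at 9.05, where the replicates had 0.569 and 0.12, and at *GAL11* at 8.72, where they had 0.218 and 0.0911. The signal of replicate 1 had a small peak of its own there at *AAT2*, *SDH2* and *KGD1*, and replicate 2 had hardly any. Downstream of the TSS the *dst1∆* signal was above naked DNA at 3 of these genes. Naked DNA was read at the chosen *dst1∆* maximum, which favours chromatin. The first *dst1∆* peak stood 80 and 70 bp after the TSS of *SDH2* with levels of 2.79 and 3.32 in the replicates, against 0.214 in naked DNA at the peak of replicate 2. It stood 20 bp after the TSS of *KGD1* in both replicates with levels of 1.98 and 6.84, against 0.189 in naked DNA. At *GAL11* it reached 2.67 in replicate 2, against 0.509 in naked DNA. At *AAT2* the contrast was smaller and depended on the replicate, with 4.61 at the peak of replicate 2, against 2.79 in naked DNA, and 3.74 at the peak of replicate 1, where naked DNA was higher at 5.45.

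Members in gene bodies were few. Their levels were 0.487 to 0.694 in replicate 1 and 0.263 to 0.659 in replicate 2, against 4.37 to 6.46 in naked DNA (5 members). The median in replicate 2 was 0.347, against 0.0718 for promoter members, and this difference was not tested. The highest was in *UGA2*, which encodes a dehydrogenase of GABA breakdown (chromosome II, 246751 to 246900), with 0.694 and 0.263 in the replicates, against 6.46 in naked DNA. Its centre was 57.5 bp after the TSS, and its reads in replicate 1 were uneven between the strands, with a Watson level of 1.01 and a Crick level of 0.373. In *YPQ1*, a vacuolar amino acid transporter (chromosome XV, 144751 to 144900), the levels were 0.487 and 0.323, against 6.19 in naked DNA. The *YPQ1* window was centred 647.5 bp after the TSS. The others were in *ATS1* (7.5 bp after the TSS), *SEC65* (157.5 bp) and *SPS19* (778.5 bp), so not all lay deep in a gene. The body members are all named here because they are few and not by their rank.

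The single member after a pAS (chromosome XV, 170101 to 170250) had 0.186 and 0.0479 in the replicates, against 5.46 in naked DNA, and lay 610.5 bp before the TSS of *IRA2*, beyond the distance counted as upstream. Some of the 4 windows assigned to no place lay beside genes that have no listed TSS. The window on chromosome IV (47851 to 48000), with 0.652 and 0.192 in the replicates, against 6.07 in naked DNA, lay between listed genes that flank *HO*, the mating-type endonuclease gene, in R64. The window on chromosome III (295351 to 295500), with 0.383 and 0.0958, against 4.04 in naked DNA, lay between listed genes that in R64 flank the silent mating-type genes *HMRA1* and *HMRA2*. The other 2 were on chromosomes IX (197551 to 197700) and I (227251 to 227400).

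The 45 members beyond the listed TSS had levels of 0.0518 to 0.694 in replicate 1 and 0 to 0.659 in replicate 2, against 4.02 to 6.91 in naked DNA. The second highest member is among them (chromosome VII, 417751 to 417900), with 5 reads in replicate 1 and none in replicate 2, against 904 reads in naked DNA. It had the lowest replicate 1 level of all members, 0.0518, against 6.91 in naked DNA. It overlaps the longest stretch of the genome that no read of either *dst1∆* replicate touches while at least 50 reads of naked DNA start in it, which is 531 bp long (chromosome VII, 417880 to 418410) and holds 631 reads of naked DNA. R64 places *DST1* on the same chromosome, and DNA removed from the mutant gives no chromatin reads. Whether this window is depleted for that reason was not tested. Without it there were 77 members, and the median levels were the same to 3 digits.

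Other members of this group were low in both replicates without being near that stretch. The window on chromosome XV (592651 to 592800) had 0.145 and 0, against 5.89 in naked DNA. The window on chromosome XI (352501 to 352650) had 0.114 and 0.12, against 5.88 in naked DNA, so that both replicates were low by the same amount. The window on chromosome IV (458251 to 458400) had 0.279 and 0.0359, against 5.9 in naked DNA. These 3 windows were picked out after their values were seen.

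The rule used nothing beyond each window, apart from reads of the same fragments at the edges. Choosing windows low in chromatin still favours a rise just outside them. The mean *dst1∆* signal was low over the window (0.403 in replicate 1 and 0.115 in replicate 2 at its lowest) and higher on both sides. A single maximum was taken in each fixed zone of distance on either side, so the zones constrain the steps between these peaks. The first peaks stood 145 bp before and after the centre in replicate 1, and 135 bp before and after it in replicate 2. The second stood at 315 bp on either side in replicate 1 and at 295 and 315 bp in replicate 2, and the third at 485 to 505 bp. Successive peaks were 160 to 200 bp apart in both replicates. The signal thus rose and fell on each side of a gap, and whether the steps are regular was not tested. The naked DNA signal peaked at 6.27 in the window and had its minimum of 0.675 at 125 bp before the centre, close to the first *dst1∆* peak. After the centre, its lowest level in the zone of the first *dst1∆* peak was 1.21 at 145 bp, above the library mean.

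The sets set beside the members shared some of these features. Around resistant windows depleted in neither replicate, all 3 libraries peaked in the window, at 4.93 and 2.98 in the *dst1∆* replicates and at 6.04 in naked DNA. Around windows depleted in both replicates with an ordinary naked DNA level, the *dst1∆* signal fell to 0.361 and 0.298 in the window, and naked DNA to 0.68. These levels in the window were fixed in direction by how each set was chosen. The depleted windows with ordinary naked DNA also had *dst1∆* peaks in the same zones on both sides in both replicates. The first stood at 115 to 125 bp, the second at 275 to 285 bp and the third at 445 to 455 bp. These peaks were low in the mean profile, with levels of 1.01 to 1.08, against 1.18 to 2.26 around the members.

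Flanking peaks were also sought at each member. A *dst1∆* peak on either side was found in both replicates for 72 members on the left and 72 on the right. No minimum height was set, so these counts are no measure of flanking nucleosomes. The median peak level was 1.78 in replicate 1 and 2.71 in replicate 2. Some peaks were close to no signal, such as 3.57e-05 in replicate 1 on the left of a member on chromosome XI (514201 to 514350). The peak position differed between the replicates by 7.5 bp in the median on the left, with 65 of 72 within 30 bp. On the right it differed by 10.5 bp, with 59 of 72 within 30 bp. A minority of members differed more, with 7 left peaks and 13 right peaks over 30 bp apart, up to 92 bp on the left and 164 bp on the right, this largest difference being at *UGA2*. The gap between the flanking peaks had a median of 292 bp in replicate 1 (quartiles 269 and 327) and 288 bp in replicate 2 (quartiles 269 and 322). It was 314 and 312 bp for depleted windows with ordinary naked DNA, whose middle 50% overlaps with that of the members, and no test of the difference was made. The peaks were sought 75 to 250 bp from the centre on each side, so the search itself bounds these distances.

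The mean centre of the naked DNA fragments was 17.4 bp from the midpoint of the flanking peaks in the median member in replicate 1 and 18.7 bp in replicate 2. It was within 30 bp of the midpoint in 53 of 73 and 51 of 71 members. The rule and the symmetric search for peaks both favour such a placement, so it is a description.

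With the 23 promoter members turned so that the gene lies to the right, the downstream side had the taller *dst1∆* peaks. The second peak downstream reached 3.56 in replicate 1 and 2.63 in replicate 2, both 295 bp from the window centre, and the second upstream reached 2.12 and 2.24. The third peak downstream, 475 bp away, reached 3.03 and 3.19. Naked DNA peaked at 7.21 in these windows, and it too was higher downstream, with 3.1 at the second downstream maximum and 2.43 at the second upstream one. Aligned on the TSS, the nucleosome + 1 of these genes stood at 45 bp in replicate 1 and 55 bp in replicate 2, with levels of 2.3 and 2.55. Over all 1937 genes with a TSS in the first 300 kb it stood at 55 bp in both, with levels of 2 and 2.33. The position of nucleosome + 1 at these genes was within 1 bin of that of all genes.

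The level 100 to 600 bp from the window centre averaged 1.41 in replicate 1 and 1.42 in replicate 2 around the members, against 1.55 in naked DNA. It was 0.979 and 0.977 around depleted windows with ordinary naked DNA, against 1.03 in naked DNA, and 2.01 and 1.57 around resistant windows depleted in neither replicate, against 2.16 in naked DNA. The members thus lay in DNA that gave more fragments than average in all 3 libraries, with and without chromatin.

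Lists of yeast promoter classes were compared by counts only. At least 1 member lay in the 500 bp upstream of 28 of 1937 genes (1.45%), and 484 genes (25%) had a resistant window of any kind there. Among genes with a TATA box, which directs the TATA-binding protein, 14 of 373 (3.75%) had a member. Among genes with a TATA-like element it was 5 of 901 (0.555%). Genes bound by the general regulatory factors Rap1 and Abf1, which keep promoters open, had a member in 12 of 408 (2.94%) and 10 of 415 cases (2.41%), and those bound by Reb1 in 2 of 98 (2.04%). Highly transcribed genes had one in 3 of 128 (2.34%). The 28 genes come from 23 windows, of which 5 lay upstream of 2 genes. The lists overlap with each other. Some were held only in part (TATA and TATA-like among them), and all were used as far as they were held. Several also held more resistant windows: 38.1% of TATA genes and 39% of Rap1-bound genes had one, against 22.5% of TATA-like genes. Of the genes with such a window, 9.86% of TATA, 7.55% of Rap1-bound and 2.46% of TATA-like ones had a member, against 5.79% of all genes. These differences were not tested.

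Promoters were also listed by how firmly nucleosome − 1 is held. Of genes whose nucleosome − 1 was called fragile, 16 of 700 (2.29%) had a member, of those called stable 9 of 711 (1.27%), and of those called asymmetric 2 of 59 (3.39%). Fragile genes also held more resistant windows (30.6%, against 20.1% of stable genes), and of the genes with such a window 7.48% of fragile and 6.29% of stable ones had a member, against 5.79% of all genes. The list of stable ones was held only in part.

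Ribosomal protein genes had no member, 0 of 54. Resistant DNA was not lacking there, since 26 of the 54 (48.1%) had a resistant window upstream. In the 25 resistant windows concerned, replicate 1 ran from 0.828 to 10.4 with a median of 4.12 and was at most 0.7 in 0, against 1.85% of all resistant windows, so that a count of 0 is no result about these promoters. Replicate 2 was at most 0.7 in 14 of the 25, with a median of 0.407, against 14.3% of all resistant windows. No test of that difference was made, and the naked DNA level of these windows was above 4 by their choice.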

How the data were processed

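The authors aligned MNase-seq reads to the sacCer2 genome with GEM, with up to 3 mismatches, and kept unambiguous alignments. The GEM version is not given in the sources used here. Each deposited line places 1 read on a strand between 2 positions, with repeated reads left in, and carries a display score that the authors set to the same value in every line, which was not used.

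Read starts were moved 73 bp inward, capped at 10 reads per strand position and counted in windows of 150 bp on the 16 nuclear chromosomes with Python 3.11.15, numpy 2.4.6, pandas 2.3.3 and scipy 1.17.1 (figures with matplotlib 3.10.9). The cap kept 72% and 74.1% of reads in the *dst1∆* replicates, against 63.2% in naked DNA. Counts were divided by the mean window count of the library. Flanking peaks were the highest local maxima 75 to 250 bp from the centre of the window, after smoothing with an SD of 20 bp. No minimum height was set for them. Window placement and the rule were tested on simulated data.

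Of 3 libraries, 1 is naked DNA, so no test between groups was made and intervals cover counting error only, since reads without molecular identifiers are not independent molecules. Nothing in the sources used here says that the *dst1∆* replicates came from separate cultures. The members and lists were chosen with earlier results of these data known. TSS, pAS and gene lists came from the supplement of the study, of which the TSS table was held only in part, about the first 300 kb of each chromosome (1971 genes, of which 1959 matched a RefSeq symbol of assembly R64). Genes named are the 12 promoter members with the highest naked DNA level, the 6 highest members, any at ribosomal protein genes and any at the longest stretch without *dst1∆* reads, and others are named where few. Promoter sequences and motifs were not analysed here. Alternatives to the cap, shift, windows, scaling, depth, limits, replicates and gene distances were tried.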

Additional observations from a re-analysis of the deposited data

How the results depend on the processing

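With the naked DNA level above 4 and *dst1∆* at most 0.7, 78 windows were members. Their number was 77 with shifts taken from the cross-correlation of the strands, 86 with windows tiled from 75 bp and 101 after thinning all libraries to the shallowest. It moved to 167 with no cap, 0 with 1 read per strand position, 412 and 23 with windows of 100 and 200 bp, 358 with scaling to the median window, 205 and 26 with naked DNA above 3 and above 5, and 42 and 169 with *dst1∆* at most 0.5 and at most 1. Leaving out 1 replicate gave 100 (without replicate 2) to 774 (without replicate 1). The share of members upstream of a TSS was 69.7%, and moved beyond its interval to 51.2% and 100% with windows of 100 and 200 bp. Leaving out 1 replicate gave 43.8 to 59.5%. The median naked DNA level of 4.67 moved to 5.34 with no cap, 5.88 with scaling to the median, and 3.76 and 5.63 with limits of 3 and 5. Scaling to the median changes the unit of all levels and limits to the median window. That window stood at 0.413 of the library mean in naked DNA, and at 0.683 and 0.766 in the *dst1∆* replicates. Values under this setting cannot be set directly against the others. The mean of the *dst1∆* medians, 0.27, was within the spread of the replicates under all settings but 1. That spread is wide (SD 0.263) and the rule caps these levels, so this is no sign of stability. The mean was 0.315 to 1.34 with 1 replicate left out of the rule.

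The *dst1∆* level 100 to 600 bp away, 1.42, has a replicate SD of only 0.00889 (n = 2), so nearly every setting moved it. It was 1.54 with no cap, 1.38 with cross-correlation shifts, 1.34 with tiling from 75 bp, 1.29 and 1.36 with windows of 100 and 200 bp, 1.72 with scaling to the median, 1.36 after thinning, 1.28 and 1.5 with naked DNA above 3 and 5, 1.38 and 1.27 with *dst1∆* at most 0.5 and 1, and 1.43 without the window at the read-free stretch, a setting chosen after seeing the data. With 1 replicate left out of the rule it was 1.32 to 1.42. Under every setting that gave members it stayed above 1, which is the library mean or, with scaling to the median, the median window. The causes of these shifts were not tested. No paired analysis was possible because naked DNA is a single library with no replicate number and no result comes from a test. The depth limits the lowest levels: 29 members had at most 3 reads in *dst1∆* replicate 2.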
